A study of Mus musculus with 6 samples.

Results

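Hmgcs1, Idi1, Fdps, Fdft1, Sqle, Lss and Cyp51 encode enzymes of the pathway that builds cholesterol from acetyl-CoA. These 7 genes were taken by name from the 32285 features of a spatial RNA dataset of the ageing mouse brain, and all 7 were found. They were selected on levels by age and region measured in these same sections, so their differences between ages and regions are given here as descriptions and not as independent tests. The sections came from frozen brains of male C57BL/6J mice aged 6 months (young), 18 months (middle) and 21 months (old), with 2 mice and 2 coronal sections per age, and the labels name no treatment or transgene. Each section was 16 micrometres thick and was laid on a Visium slide, where every capture spot barcodes the polyadenylated RNA above it and unique molecular identifiers (UMIs) count the captured molecules. A spot covers several cells or parts of cells, so fewer cells of a type and less RNA per cell cannot be told apart.

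The brain makes nearly all of its own cholesterol, because lipoproteins of the blood do not cross the blood-brain barrier. Oligodendrocytes, the cells that wrap axons in myelin, need large amounts of it, and neurons and astrocytes make it as well. The transcription factor SREBP2, which is encoded by Srebf2, switches the enzymes on together when membranes are low in sterol. Hmgcs1 makes HMG-CoA. Idi1 and Fdps make and join the isoprene units, and Fdft1 (squalene synthase) commits the chain to sterols. Sqle adds oxygen to squalene, Lss closes the rings to lanosterol, and Cyp51 starts the trimming of lanosterol.

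On GRCm38 with GENCODE M21, the genes lie on 6 chromosomes. Hmgcs1 (chr13:119690379-119708260, plus strand) and Idi1 (chr13:8885501-8892451, plus) share chromosome 13. Sqle lies at chr15:59315077-59331192 (plus), Fdps at chr3:89093588-89101959 (minus), Fdft1 at chr14:63145150-63179578 (minus), Lss at chr10:76531588-76557138 (plus) and Cyp51 at chr5:4081145-4104746 (minus). RefSeq promoter windows of GRCm38.p6 were held for 4 of the 7 genes, namely Hmgcs1, Idi1, Lss and Cyp51. The Idi1 window lies mostly inside the GENCODE gene model, so none of it is shown. Its 145 bases before that model held no match to the motifs marked below. The other 3 genes, like Idi1, had lower means in aged than in young white matter (values below, where Lss did not pass the test). SREBP2 is known to act with partner factors at such promoters, so stretches of these 3 are shown. Each is read 5′ to 3′ on the gene's own strand and ends before any base that RefSeq or GENCODE places in the transcript.
Hmgcs1, chr13:119690201-119690350, plus: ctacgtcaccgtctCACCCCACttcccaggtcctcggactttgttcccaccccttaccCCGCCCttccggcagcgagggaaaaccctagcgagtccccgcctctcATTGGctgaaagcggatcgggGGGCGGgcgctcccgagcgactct
Lss, chr10:76531438-76531587, plus: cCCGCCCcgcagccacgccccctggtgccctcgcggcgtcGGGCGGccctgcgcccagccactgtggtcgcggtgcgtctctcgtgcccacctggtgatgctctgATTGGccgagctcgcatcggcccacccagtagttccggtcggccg
Cyp51, chr5:4104747-4104896, minus: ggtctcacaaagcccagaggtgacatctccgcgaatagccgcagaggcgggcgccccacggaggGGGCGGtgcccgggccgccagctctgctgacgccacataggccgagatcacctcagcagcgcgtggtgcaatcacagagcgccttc
Capitals mark matches, on either strand, to the sterol regulatory element core CACCCCAC, the SP1 box GGGCGG (which reads CCGCCC on the other strand) and the CCAAT box (which reads ATTGG on the other strand). Within the full windows of 250 bases before to 50 bases after the start, the core matched in 1 of the 4 genes, Hmgcs1, 136 bases before its start, and in 2.87% of 32851 windows. None of these motifs contains another. GGGCGG matched in all 4 genes against 35.7% of windows, and CCAAT matched in all 4 against 37.4%. A match is a description of letters and shows no binding.

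The section totals ran from 60938938 to 77557934 UMIs over 16741 spots, with medians of 20370 to 30093 UMIs per spot. The 4 capture areas of young 1, young 2, middle 1 and old 1 lay on slide 1 and the other two (middle 2 and old 2) on slide 2, so slide and age were partly mixed. Spots were clustered without these genes and 9 regions were named from marker genes. White matter comprised 2 clusters with 1909 spots. The larger was led by Apod and Trf, with C4b and Gfap also among its leading genes. The smaller was led by Ccn2, Cplx3, Thbs4 and Nxph3, followed by Mbp. White matter held 282 to 352 spots per section and between 4027166 and 4699511 UMIs. Of the hippocampal spots, young 1 had 44 and the other sections had 166 to 275. The Visium positions reuse barcodes, and 3109 of 3389 distinct barcodes occurred in more than 1 section.

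Over whole sections the 7 genes stayed nearly level with age. Levels are given in CPM, which are UMIs per 1000000 UMIs of the spots summed. Summed over the 7 genes they were 516 and 522 CPM at 6 months, 524 and 538 at 18 months and 542 and 538 at 21 months. For single genes the CPM were also scaled by the trimmed mean of M-values (TMM), and Hmgcs1 had 201 and 192 CPM at 6 months, 196 and 184 at 18 months and 191 and 183 at 21 months. The middle values overlapped the young ones, and both old values lay just below them. Fdps had 81.9 and 79.2 CPM at 6 months, 87.7 and 87.4 at 18 and 83.9 and 92.9 at 21 months. Lss had 15.4 and 14.7, then 16.1 and 16.9, then 17.2 and 16.7. For Fdps and Lss every middle and old section lay above both young sections, as did both middle sections for 19.1% and both old sections for 21.5% of all genes. No member passed an adjusted p of 0.05 in edgeR's quasi-likelihood test between old and young (0 of 7, against 0.164% of 17673 genes), between middle and young (0 of 7, against 0.0679%) or between old and middle (0 of 7, against 0%). At an unadjusted p under 0.05 these counts were 1, 0 and 0 of 7, and DESeq2 called 0 in each. Of all 17673 genes, 2246, 1382 and 361 had an unadjusted p under 0.05 in the same order. Outside white matter the summed level was 511 and 517 CPM at 6 months, 528 and 544 at 18 and 543 and 541 at 21 months. There too edgeR called 0 of 7 for old against young (0.148% of 17593 genes), 0 of 7 for middle against young (0.0512%) and 0 of 7 for old against middle (0%), with 2, 1 and 0 at an unadjusted p under 0.05 and 0 by DESeq2. Of all 17593 genes, 2070, 1385 and 319 had an unadjusted p under 0.05 in that order.

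White matter differed from that picture. The 7 genes together had 620 and 603 CPM in white matter at 6 months, 467 and 435 at 18 months and 526 and 498 at 21 months. The 3 ages did not overlap, and the lowest pair was that of 18 months rather than that of 21 months. The values by gene follow in the order of the pathway.

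**Figure D1:**
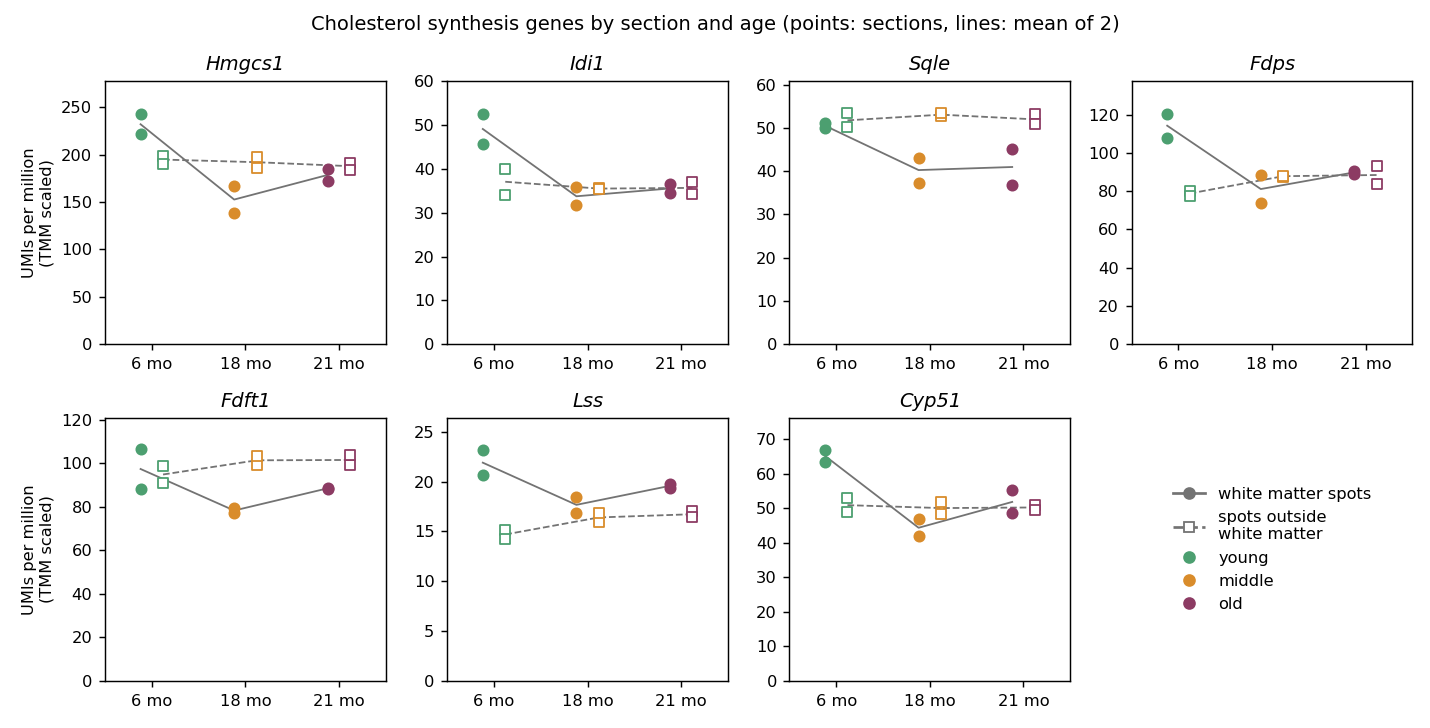
Level of each of the 7 genes in TMM-scaled CPM (y axis, from 0) against age in months (x axis, ages evenly spaced), with 1 point per section. Filled circles are white matter, open squares are all other spots, and lines join the means of 2 sections. White matter lies lower at 18 than at 6 months in all 7 panels, with Hmgcs1 at means of 153 and 232, while the other spots stay nearly level. The 2 sets of spots were scaled separately.

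Hmgcs1 had 243 and 221 CPM in young white matter, 167 and 138 in middle and 185 and 172 in old white matter. Both young sections stood above the other 4, and the log2 fold change was -0.60 (SE 0.10) for middle against young and -0.38 (SE 0.10) for old against young. Idi1 had 45.7 and 52.6 in young, 35.8 and 31.7 in middle and 34.5 and 36.7 in old white matter. Middle and old sections overlapped for Idi1, and all 4 lay below the young ones, with log2 fold changes of -0.54 (SE 0.13) and -0.47 (SE 0.14) against young. Fdps had 120.5 and 108 in young, 88.2 and 73.9 in middle and 89.0 and 90.7 in old white matter. Its log2 fold change was -0.49 (SE 0.11) for middle and -0.35 (SE 0.11) for old against young, and again no aged section reached the young ones.

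Fdft1, at the branch into sterols, had 106 and 88.2 CPM in young, 77.1 and 79.4 in middle and 88.7 and 88.2 in old white matter. The old sections overlapped the young ones for this gene alone among the 7, and its log2 fold change against young was -0.31 (SE 0.11) at 18 months and -0.14 (SE 0.11) at 21 months. Sqle had 51.0 and 49.9 in young, 37.3 and 43.1 in middle and 45.2 and 36.7 in old white matter. The middle and old sections of Sqle overlapped each other and lay below the young ones (log2 fold change -0.33 with SE 0.13, and -0.30 with SE 0.13). Lss rested on the fewest molecules, 74 to 95 UMIs per section in white matter. It had 20.7 and 23.1 CPM in young, 18.5 and 16.9 in middle and 19.8 and 19.4 in old white matter, and its log2 fold changes of -0.31 (SE 0.17) and -0.16 (SE 0.17) were within about 2 SE of 0. Cyp51 had 66.9 and 63.6 in young, 46.8 and 42.0 in middle and 55.2 and 48.5 in old white matter. Its 3 ages did not overlap, and its log2 fold change was -0.55 (SE 0.12) for middle and -0.33 (SE 0.12) for old against young.

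Both middle sections lay below both young sections for 7 of the 7 genes (22.4% of all genes tested in white matter did so), and both old sections lay below both young sections for 6 of 7 (20.2% of all genes). In edgeR's quasi-likelihood test 4 of 7 were called lower at 18 than at 6 months (Hmgcs1, Cyp51, Idi1 and Fdps), where 3.25% of 13011 genes were called in either direction and 1.48% lower. DESeq2 gave an adjusted p to 5 of the 7 and called 2, Hmgcs1 and Fdps, with Cyp51 at an adjusted p of 0.0620 and Idi1 without one. Of all 13011 genes, edgeR called 423 here, DESeq2 172 and edgeR with the slide as a term 115. Since the genes were chosen with these results known, nothing is read from the counts of members called. For old against young, 0 of 7 were called (1.84% of all genes), with 5 of 7 at an unadjusted p under 0.05 and 0 called by DESeq2. For old against middle, 0 of 7 were called (0.161% of all genes), with 1 of 7 at an unadjusted p under 0.05, and all 7 fold changes were above 0. Of all 13011 genes, 1606 had an unadjusted p under 0.05 for old against young and 1208 for old against middle. The median log2 fold change of the 7 was -0.49 at 18 months and -0.33 at 21 months against young, where the median of all genes was 0.00 for each.

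Leaving out middle 2 ended all 4 calls at 18 months (0 of 7 called), although the fold change of Hmgcs1 was still -0.47 and that of Cyp51 -0.48. Leaving out young 1 left 2 of 7, and with the slide as a term 1 of 7 was called, Hmgcs1, at a log2 fold change of -0.51.

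Summed over the 7 genes, white matter lay above the other spots at 6 months and below them at 18 and 21 months. The summed level in white matter was 1.21 and 1.17 times that of the other spots of the same section in the young mice, 0.88 and 0.80 times in the middle mice and 0.97 and 0.92 times in the old mice. For Fdps, each set of spots on its own TMM scale, the ratio was 1.51 and 1.39 in young, 1.01 and 0.84 in middle and 1.06 and 0.97 in old sections. For Sqle it was below 1 in every section, at 0.96 and 1.00 in young, 0.71 and 0.81 in middle and 0.85 and 0.72 in old sections. For Lss it was not below 1 in any section, at 1.36 and 1.62 in young, 1.16 and 1.00 in middle and 1.16 and 1.18 in old sections. In 1 edgeR model with the section as a block, the age change in white matter minus that in the other spots was called for 5 of 7 genes at 18 months (3.67% of 16894 genes) and for 1 of 7 at 21 months (0.787%). The differences at 18 months were -0.63 (SE 0.11) for Fdps, -0.56 (SE 0.09) for Hmgcs1, -0.50 (SE 0.12) for Cyp51, -0.46 (SE 0.13) for Idi1 and -0.38 (SE 0.11) for Fdft1 on the log2 scale. The one at 21 months was -0.51 (SE 0.11) for Fdps. Between middle and old the count was 0 of 7 (0.266% of all genes), with 1 of 7 at an unadjusted p under 0.05 (1391 of all 16894 genes). limma on the within-section differences called 0 of 7 in each comparison, and the count at 18 months was 0 without middle 2, 2 without young 1 and 3 without middle 1. At 21 months the count was 0 without old 2.

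The 2 white matter clusters are given apart, on raw totals. In the larger one (223 to 287 spots per section) the summed level was 606 and 573 CPM in young, 402 and 376 in middle and 477 and 448 in old sections, so that the 3 ages did not overlap. In the smaller cluster, whose leading genes Ccn2 and Cplx3 are known from the deepest cortical layer next to the fibre tract, the sum was 671 and 681 in young, 634 and 579 in middle and 633 and 639 in old sections. Hmgcs1 in the smaller cluster had 251 and 257 CPM in young and 201 and 187 in middle sections, without overlap. Fdft1 in the smaller cluster had 116 and 109 in young and 118 and 118 in middle sections, so the middle sections were the higher ones. Fitted separately, 6 of 7 genes were called at 18 months in the larger cluster (3.11% of all genes) and 0 of 7 in the smaller one (0.268%), which holds 54 to 74 spots per section. Whether the clusters differ was not tested.

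Marker genes of several cell types moved in the same spots, and their part in the result was not tested. Of all 13011 genes tested there, edgeR called 3.25% at 18 months (1.48% lower) and 1.84% at 21 months, each against young. The 11 myelin genes had 50598 and 53124 CPM in young white matter, 44734 and 38560 in middle and 46845 and 46473 in old, and 7 of 11 were called lower at 18 months, among them Mal (-0.67, SE 0.11) and Cldn11 (-0.56, SE 0.11). The 8 neuronal genes had 1381 and 1537 in young, 1837 and 2223 in middle and 1723 and 1543 in old white matter, with Snap25 and Thy1 called higher at 18 months (2 of 8). The 6 microglial genes had 556 and 618, then 737 and 819, then 992 and 1220, and 4 of 6 were called higher at 21 months than at 6. Of the genes of newly formed oligodendrocytes, 3 of the 7 tested were called lower at 18 months (Bmp4 -2.07, Gpr17 -1.33, Enpp6 -0.40). The 9 astrocyte genes had 2848 and 3021 CPM at 6 months, 2910 and 2965 at 18 months and 3146 and 3287 at 21 months.

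Counted per 1000 UMIs of the myelin genes, the 7 genes had 12.3 and 11.3 UMIs in young, 10.4 and 11.3 in middle and 11.2 and 10.7 in old white matter. On that scale the mean was 10.9 at 18 months against 11.8 at 6 months. That difference was within about 2 SD of the young sections (SD 0.64), an SD that rests on 2 sections. All middle and old sections lay below both young ones, although young 2 and middle 2 were nearly equal. Spots were also binned by myelin share with the same limits in every section. In the highest bin, where myelin genes made up 3.42% to 9.08% of a spot's UMIs, the sum of the 7 was 616 and 583 CPM in young, 437 and 401 in middle and 505 and 488 in old sections. In the bin just below (1.39% to 3.42%) it was 442 and 496, then 454 and 434, then 466 and 490, so both aged groups overlapped the young one and the old sections lay above the middle ones.

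**Figure D2:**
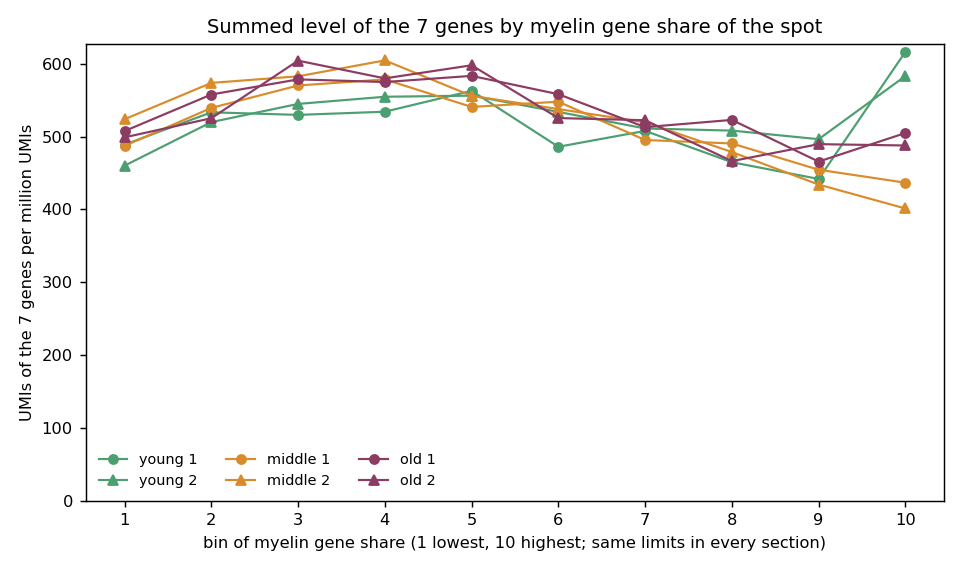
Summed level of the 7 genes in CPM (y axis, from 0) against the bin of the spot's myelin gene share (x axis, bin 1 lowest, bin 10 highest, the same limits in every section), with 1 line per section coloured by age. In bin 10 the young sections, at 616 and 583, lie above all aged ones, with the middle sections at 437 and 401. In bins 3 and 4 the aged sections lie above the young ones instead, by a smaller distance.

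Outside white matter no member was called in any named region. Over 8 other regions and 3 age comparisons, 0 of 168 tests of these genes were called by edgeR, 11 had an unadjusted p under 0.05 and DESeq2 called 0, where 0.063% of all gene tests were called. In the isocortex the median log2 fold change of the 7 was 0.06 at 18 months and 0.06 at 21 months against young. In the hypothalamus all 7 lay above 0 at 18 months, with a median of 0.25 (0 of 7 called, against 0.0426% of all genes). There Fdps had 96.5 and 93.1 CPM in young, 123 and 119 in middle and 92.7 and 119 in old sections, so the middle sections were high and the old ones split. Fdft1 ran alike in the hypothalamus, at 118 and 104, then 134 and 139, then 110 and 132.

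In the hippocampal formation the young pair disagreed. Hmgcs1 had 244 CPM in young 1, which had 44 hippocampal spots, and 141 in young 2, against 144 and 146 in middle and 144 and 140 in old sections. Sqle had 61.7 and 40.0 in young, 43.7 and 37.7 in middle and 37.4 and 40.0 in old sections. With all sections the median log2 fold change of the 7 for old against young was -0.13 (0 of 7 called, against 0% of all genes), and without young 1 it was 0.01. Without young 2, so that young 1 stood alone for its age, 3 of 7 were called in old against young (11.7% of all genes) and 2 of 7 in middle against young (9.59%).

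**Figure D3:**
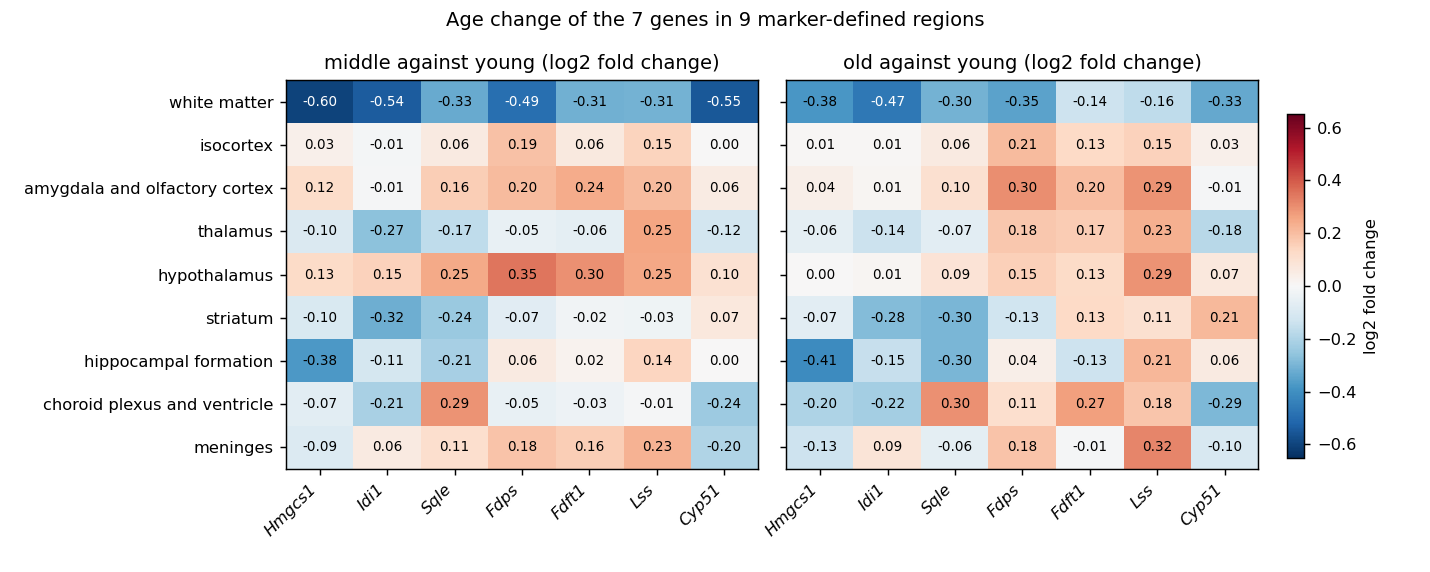
Log2 fold change of each gene (columns) in each of 9 regions (rows) for middle against young (left) and old against young (right), blue lower and red higher than young, on 1 colour scale from -0.65 to 0.65. The white matter row is blue throughout, from -0.60 to -0.31 on the left and from -0.47 to -0.14 on the right, while the other rows mix both signs or are above 0. Hippocampal values rest partly on the 44 spots of young 1.

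The order of regions differed between the genes. The striatum had the lowest mean level for 6 of the 7, for example 109 ± 5.6 CPM (SD, n = 6 sections) for Hmgcs1, 33.0 ± 3.98 for Cyp51 and 26.2 ± 3.67 for Sqle. For Lss the striatum (13.4 ± 0.86) and the hippocampal formation (13.5 ± 2.40) did not differ beyond their spread, with the hippocampal formation above in 3 of 6 sections. In every section striatal Hmgcs1 and Cyp51 lay below the next region up, the choroid plexus and ventricle spots for Hmgcs1 (146 ± 11.5) and the hippocampal formation for Cyp51 (38.5 ± 4.10). For Fdft1 the striatum (69.6 ± 5.48) and the choroid plexus and ventricle spots (68.5 ± 13.2) were lowest and did not differ beyond their spread. Hmgcs1 was highest in the amygdala and olfactory cortex (233 ± 21.3), above the isocortex (215 ± 7.63) in 5 of 6 sections, and the isocortex lay above the thalamus (209 ± 15.8) in 3 of 6, so isocortex and thalamus did not differ beyond their spread. Fdps and Fdft1 were highest in the hypothalamus (107 ± 14.4 and 123 ± 14.4), Cyp51 and Idi1 in the thalamus (63.3 ± 5.72 and 43.2 ± 4.32), and Lss in the choroid plexus and ventricle spots (20.4 ± 1.92) and white matter (19.7 ± 2.12). At 6 months alone Fdps was higher in white matter (120.5 and 108) than in the hypothalamus (96.5 and 93.1), and Idi1 in white matter (45.7 and 52.6) overlapped the thalamus (48.2 and 46.7). These orders and SDs pool the 3 ages, and Hmgcs1 in white matter (188 ± 38.2) overlapped its neighbours on both sides. At 6 months alone Hmgcs1 in white matter (243 and 221) overlapped the thalamus (231 and 203) and lay above the hypothalamus (187 and 164).

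In the rest of the pathway few genes were called. Of all 13011 genes tested in white matter, 2095 had an unadjusted p under 0.05 at 18 months and 1606 at 21 months, each against young. Of the 14 other cholesterol synthesis enzymes, 1 was called lower in white matter at 18 months by edgeR and by DESeq2, Msmo1, which removes methyl groups from the sterol ring after Cyp51. Msmo1 had 114 and 119 CPM in young, 87.1 and 80.1 in middle and 85.3 and 94.1 in old white matter, a log2 difference from young of -0.48 (SE 0.10, adjusted p = 0.0126 in edgeR) at 18 months and of -0.38 (SE 0.10, adjusted p = 0.0580) at 21 months. Without middle 2 that call was lost at 18 months (-0.42, edgeR adjusted p = 0.198), as it was with the slide as a term (adjusted p = 0.0531). All 14 lay below 0 at 18 months with a median of -0.30, and at 21 months 0 of 14 were called (3 at an unadjusted p under 0.05, 0 by DESeq2) and 10 lay below 0, with a median of -0.20.

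**Figure D4:**
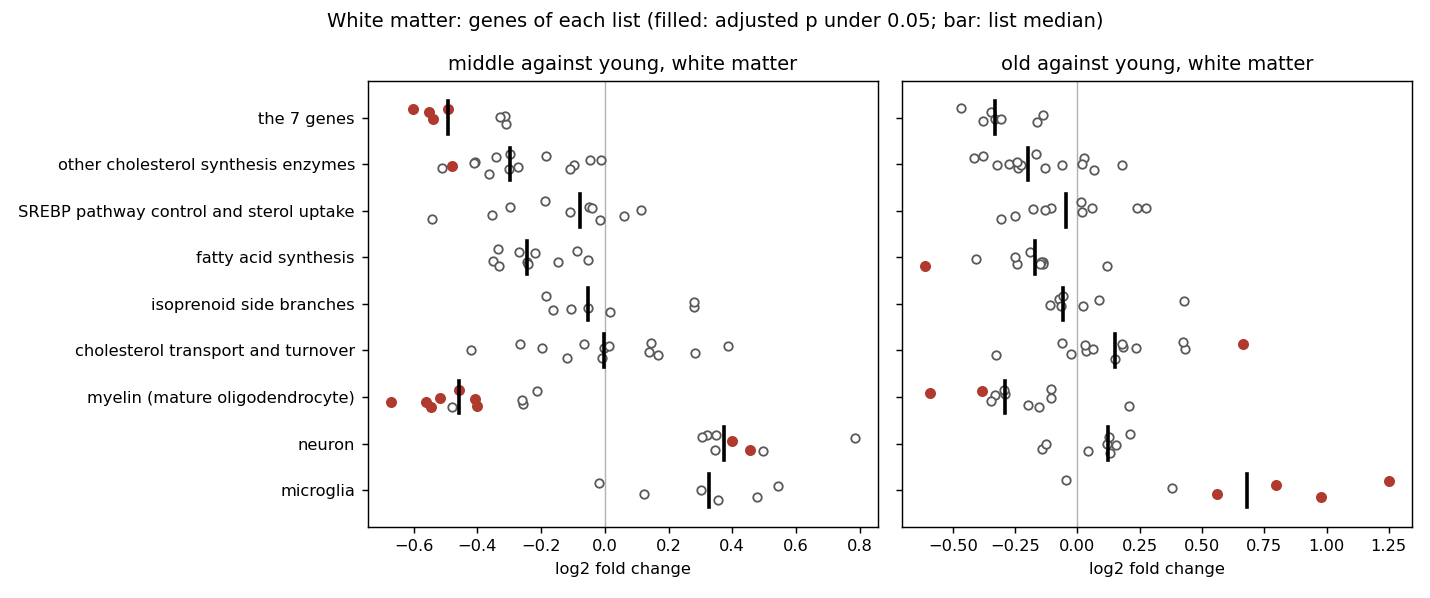
Log2 fold change in white matter (x axis) of every tested gene of 9 lists (rows) for middle against young (left) and old against young (right). Filled points passed an adjusted p of 0.05 in edgeR, open points did not, bars are list medians and vertical scatter has no meaning. At 18 months the 7 genes have a median of -0.49, the other cholesterol enzymes -0.30 and the myelin genes -0.46, and the neuronal genes lie to the right of 0.

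Of the SREBP control and sterol uptake genes, 10 of 11 were tested in white matter and 0 were called at either age against young by edgeR or DESeq2 (2 at 18 and 1 at 21 months at an unadjusted p under 0.05). Srebf2 had 149 and 143 CPM in young, 138 and 118 in middle and 145 and 122 in old white matter (middle against young -0.19, SE 0.11, edgeR adjusted p = 0.405). Insig1, which holds SREBP in the endoplasmic reticulum and is itself an SREBP target, had 70.7 and 67.7, then 51.1 and 61.6, then 68.2 and 60.6 (-0.30, SE 0.12, adjusted p = 0.197 by edgeR at 18 months). Neither gene passed the test, although both middle sections lay below both young ones for each.

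Of the 10 fatty acid synthesis genes, 0 were called at 18 months by edgeR or DESeq2 (7 at an unadjusted p under 0.05) and 1 was called lower at 21 months by edgeR. That gene was Acss2, which makes acetyl-CoA from acetate, with 52.8 and 45.3 CPM in young, 43.4 and 34.2 in middle and 33.7 and 30.5 in old white matter (old against young -0.61, SE 0.15, edgeR adjusted p = 0.0257), and neither DESeq2 nor edgeR without young 1, old 1 or old 2 called it (edgeR adjusted p = 0.232, 0.0864 and 0.330). Of the 13 cholesterol transport and turnover genes, 0 were called at 18 months by edgeR or DESeq2 (2 at an unadjusted p under 0.05) and Apoe was called higher at 21 months by both. Apoe, the main lipid carrier made in the brain, had 3377 and 2998 in young, 3414 and 3738 in middle and 4608 and 5511 in old white matter (0.67, SE 0.12, edgeR adjusted p = 0.00304). The call of Apoe was lost without old 2 (0.53, edgeR adjusted p = 0.225) and with the slide as a term (adjusted p = 0.0686). Cyp46a1, the neuronal enzyme that clears cholesterol from the brain, had 42.1 and 41.4, then 57.3 and 44.1, then 46.7 and 46.0 (0.28, SE 0.13, edgeR adjusted p = 0.302 at 18 months). Of the 7 genes of the isoprenoid side branches, 0 were called at either age against young by edgeR or DESeq2, and 0 had an unadjusted p under 0.05. Over whole sections edgeR called 0 of 165 tests of these 5 lists (12 at an unadjusted p under 0.05), and DESeq2 called 1, Apoe for old against young. Outside white matter both tools called 0 of 165 (14 at an unadjusted p under 0.05). The counts of all genes at that threshold are given above for whole sections and for spots outside white matter.

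Likeness to the mean of the 7 was measured by Pearson's r on log2 of CPM plus 1, with CPM on raw totals, across the 54 values of 9 regions in 6 sections. The 9743 genes ranked left out the 7 and the lists of other cholesterol synthesis enzymes and of SREBP control and sterol uptake. Among the ranked genes the most alike in level were Tmem141 (0.84), Camk1 (0.84), Tuba1b (0.81), Tbcb (0.79) and Cib2 (0.77). Among the genes of those left-out lists with a mean of at least 10 CPM, 24 in number, r ran from -0.59 to 0.90. The median was 0.52, and 11 of 24 were under 0.5. It was 0.90 for Msmo1, 0.76 for Insig1 and 0.62 for Srebf2. After the mean of each region was subtracted, the most similar of the ranked genes were Enoph1 (0.66), Tppp3 (0.63), Stmn1 (0.62), Bub3 (0.61) and Saraf (0.60). Of the left-out lists, Msmo1 had 0.65 there, Srebf2 0.59 and Insig1 0.53. The points share sections, depth and regions, so these values describe likeness and carry no test.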

How the data were processed

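The submitters' processing notes name Space Ranger and the mouse build mm10, and per the file headers the matrices were written by Space Ranger 1.3.1. The deposited values are UMI counts per gene and spot, not normalized. Spots under 500 UMIs were left out (2 spots). Spots were clustered with scanpy 1.11.5 (2000 variable genes without the pathway lists, scaled within sections, 30 components, Leiden resolution 0.8), and clusters were named from marker lists. After the clusters were seen, a rule was added that a cluster led by cholinergic genes keeps no name, which left 871 spots out of the hypothalamus. Counts were summed per section and region and tested with edgeR 4.0.16 (quasi-likelihood, TMM, filterByExpr, age only, 6 sections, 3 residual degrees of freedom), with Benjamini-Hochberg adjustment over all genes tested. The code was tested on simulated counts, where false calls made up more than the nominal share in most runs, so calls with an adjusted p close to 0.05 may be liberal. The members, gene lists and tests were chosen with earlier results of these data known. All members are named, and of the other lists the called genes with a mean of at least 10 CPM (up to 10 per list, of which examples are given) plus Srebf2, Insig1, Apoe and Cyp46a1. Some genes of the lists enter the counts and medians but are not reported here by name. CPM of single genes are TMM-scaled, except in the 2 white matter clusters and in the likeness values, which use the raw total. Those of list sums use the raw total as well. Counts of DESeq2 calls cover genes to which it gave an adjusted p. DESeq2 1.42.0, limma 3.58.1, other normalizations, filters, blocks, region definitions and left-out sections were the alternatives.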

Additional observations from a re-analysis of the deposited data

Results flagged for a closer look

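The age change of these results differed between white matter and the other spots of the same sections, by edgeR's test of that difference with Benjamini-Hochberg adjustment. At 18 against 6 months the change in white matter minus that elsewhere was -0.56 for Hmgcs1 (adjusted p = 0.000627), -0.46 for Idi1 (0.0453), -0.63 for Fdps (0.00123), -0.38 for Fdft1 (0.0424) and -0.50 for Cyp51 (0.0152) on the log2 scale. Among the other pathway genes it was -0.43 for Insig1 (adjusted p = 0.0288), -0.41 for Msmo1 (0.0271), -0.29 for Npc2 (0.0345), -0.38 for Scd1 (0.00353) and -0.31 for Scd2 (0.0218). By list edgeR called 2 of 14 other cholesterol enzymes, 2 of 11 SREBP genes, 2 of 10 fatty acid genes and 1 of 13 transport genes. Of the isoprenoid genes it called 0 of 7, and of all 16894 genes 3.67%. DESeq2 called 2, 0, 2, 1 and 0 in these lists and 329 of all 16894 genes, so the call of Insig1 was edgeR's alone. Limma on the within-section differences called 0 of the 7 members at 18 and at 21 months. Its calls for the other pathway genes, and their fits with a section left out, are not given here. At 21 against 6 months the difference was -0.51 for Fdps (edgeR adjusted p = 0.0140) and 0.49 for Apoe, and for Apoe at 21 against 18 months 0.45. The 7 genes were chosen with such differences in view, so their values are descriptions.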

How the results depend on the processing

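Over whole sections and outside white matter, 0 of 7 genes were called under each of the 13 and 15 alternatives. In white matter at 18 against 6 months, where 4 were called, DESeq2 called 2 (of 5 with an adjusted p), the slide as a block 1 and the smaller cluster alone 0, and leaving out 1 section gave 0 (without middle 2) to 4, with 2 without young 1. At 21 against 6 months, where 0 were called, dropping the filter on low counts gave 3, the replicate block 1, and Leiden resolution 0.5, the 10% of spots with most myelin, a fixed myelin share and the larger cluster alone 2 each, and leaving out 1 section gave 0 to 1 (1 without middle 1, young 2 or middle 2). For white matter minus other spots, limma called 0 at both ages against 5 and 1. There Leiden resolution 0.5 and the 10% with most myelin called 2 at 21 months, and leaving out 1 section gave 0 (without middle 2) to 5 at 18 months, with 2 without young 1 and 3 without middle 1, and 0 (without old 2) to 1 at 21 months. In the hypothalamus 1 was called at 18 months with no filter, and the median there was 0.17 with the cholinergic cluster included. In the hippocampal formation leaving out 1 section gave 0 to 3 at 21 and 0 to 2 at 18 months. Calls over all genes moved as well. In white matter at 18 against 6 months edgeR called 423 of 13011 genes, DESeq2 172 and the slide as a block 115. The cause of these changes was not tested. The cluster and fixed-share alternatives, and the cholinergic cluster, were chosen after seeing the data. The replicate number is shared between ages without pairing the mice: deviations of same-numbered sections correlated at 0.02, 0.13 and 0.24, and with the replicate block 263 genes rather than 239 were called in white matter at 21 months. With 2 mice per age, p-values rest on little replication, and Lss on few UMIs.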
